A study of Mus musculus with 20 samples.

Results

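Oxidative phosphorylation genes encode the respiratory chain. Their transcripts were followed here in neutrophils sorted from the brain, liver and tumor of mice with pancreatic ductal adenocarcinoma (PDAC). Blood neutrophils came from mice with PDAC and from sham mice. A gene belonged to the set when its symbol named a subunit of complexes I to V, an assembly factor whose symbol begins with Nduf or Uqcc, or cytochrome c, when the symbol did not mark a pseudogene, and when at least 1 read was counted. Of 110 matching symbols, 105 had a count, 96 of them in the nuclear genome and 9 in the mitochondrial genome, out of 28762 genes with a count and 51912 genes listed. The 5 without a count were Cox7b2 and the mitochondrial genes mt-Atp6, mt-Atp8, mt-Co2 and mt-Nd4l, and 7 matching pseudogene symbols were left out. Members were grouped by symbol, which need not give the true place of every product. So grouped, the set holds 44 subunits and 8 assembly factors of complex I and 4 subunits of complex II. It also holds 10 subunits and 3 assembly factors of complex III, cytochrome c, and 19 and 16 subunits of complexes IV and V.

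The brain, liver and tumor groups and the first blood group came from C57BL/6 mice 10 days after intraperitoneal or orthotopic injection of a mouse pancreatic cancer cell line derived from animals with a Pdx1-Cre driver, so the tumor in every mouse grew from 1 cell line. Sham mice, of the same strain, received PBS. All mice were 7 to 12 weeks old. Perfusion with PBS preceded removal of the organs, live single CD11b-high Ly6G-high cells were sorted, and 4 libraries were sequenced per group, 20 in all. By the paper's methods, blood was drawn before perfusion and removal of brain, liver and tumor, so libraries of several groups may share a mouse. Nothing in the labels says which libraries do. The main test treated libraries as independent, so the p-values measure the spread between libraries.

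Oxidative phosphorylation takes place in the inner mitochondrial membrane. Complexes I and II pass electrons to ubiquinone, complex III hands them to cytochrome c, complex IV reduces oxygen, and complex V uses the proton gradient to make ATP. Mitochondrial DNA encodes 13 of the subunits and 2 ribosomal RNAs, and all other parts come from nuclear genes and are imported. Neutrophils are known for few mitochondria and for a metabolism that leans on glycolysis.

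Library depth was even, at 47388245 to 54472378 counts. Markers of the sorted cell type did not reach the same level in every group. The summed level of 10 neutrophil markers, in CPM (read counts relative to the TMM-scaled library total), lay between 49147 and 80129 in brain libraries, 24047 and 42629.9 in liver, 4013 and 11238 in tumor, and 43803 and 63433 in blood from tumor mice, with 29556 and 33974 as the bounds in sham blood. None of the 10 was at 0 in any group. In tumor libraries 8 markers of tumor epithelium summed to between 939 and 3254 CPM, against between 4.63 and 16.9 in blood from tumor mice, and 8 markers of microglia and macrophages to 2594 to 4399.6, against 897 to 929.5. All 10 neutrophil markers were lower and all 8 epithelial markers higher in tumor than in the blood of tumor mice, so every tumor value below is one of a sort with these markers in it. Whether more of a transcript comes from more RNA per cell or from other cells cannot be told apart in such bulk libraries.

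The table was silent for a block of mitochondrial genes. Reads were plentiful for mt-Rnr1, mt-Rnr2, mt-Nd1, mt-Nd2 and mt-Co1, with totals of 80916, 780257, 203543, 42594 and 474262 over the 20 libraries. Along the mitochondrial map the next 6 genes then held almost none: mt-Co2, mt-Atp8, mt-Atp6 and mt-Nd4l had 0, mt-Co3 had 4 and mt-Nd3 had 63. From mt-Nd4 on, counts were again high, with 74826 for mt-Nd4, 115761 for mt-Nd5, 25266 for mt-Nd6 and 312224 for mt-Cytb. The genes without reads include subunits of complexes I, IV and V, and both mitochondrial subunits of complex V are among them.

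Sequence shows what most of these genes have in common. Chromosome 1 carries a nuclear copy of this stretch of mitochondrial DNA, annotated as a run of pseudogenes. Of all windows of 100 bases, the read length, 99.5% of mt-Co2, 99.5% of mt-Atp6, 99.9% of mt-Co3, 97.6% of mt-Nd3 and 98.5% of mt-Nd4l also occur letter for letter in an annotated nuclear transcript. The share was 60.8% for mt-Nd4, 30.8% for mt-Co1 and 3.2% for mt-Nd2, and 0 for mt-Nd1, mt-Nd5, mt-Nd6, mt-Cytb and both ribosomal RNAs. For mt-Atp8, with 0 counts, the share was 0, but only annotated transcripts were searched. On the mitochondrial map it lies between mt-Co2 and mt-Atp6. Their chromosome 1 copies, Gm28661 and Gm10925, leave a gap between chr1:24614651 and chr1:24614885 with no listed pseudogene. A copy of mt-Atp8 in that gap would have been missed. The first 60 bases of 2 genes of the block are shown beside their copies, read from the GENCODE M21 transcripts (GRCm38), to let the identity be seen. The positions are chrM:7013-7072 (plus strand) for mt-Co2, chr1:24615506-24615565 (minus strand) for Gm28661, chrM:9459-9518 (plus strand) for mt-Nd3 and chr1:24613060-24613119 (minus strand) for Gm28438, and capitals mark the bases that differ within a pair.
mt-Co2: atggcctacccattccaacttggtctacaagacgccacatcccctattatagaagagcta
Gm28661: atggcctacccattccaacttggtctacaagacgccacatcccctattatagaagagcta
mt-Nd3: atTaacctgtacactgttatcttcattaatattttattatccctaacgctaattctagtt
Gm28438: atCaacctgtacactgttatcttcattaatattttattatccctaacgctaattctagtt
Over their whole aligned length, mt-Co2 and Gm28661 had 0 mismatches in 681 bases, and mt-Nd3 and Gm28438 had 1 in 345, which is the capital shown. The chromosome 1 copies were not counted in place of the mitochondrial genes either, since the 7 copies compared held between 0 and 68 counts each. The handling of reads with several matches was not given in the sources used here, and its part in the missing counts was not tested. Of the 13 mitochondrial protein genes, 7 had a mean of at least 1 CPM, and the results that follow are those of these 7.

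**Figure D1:**
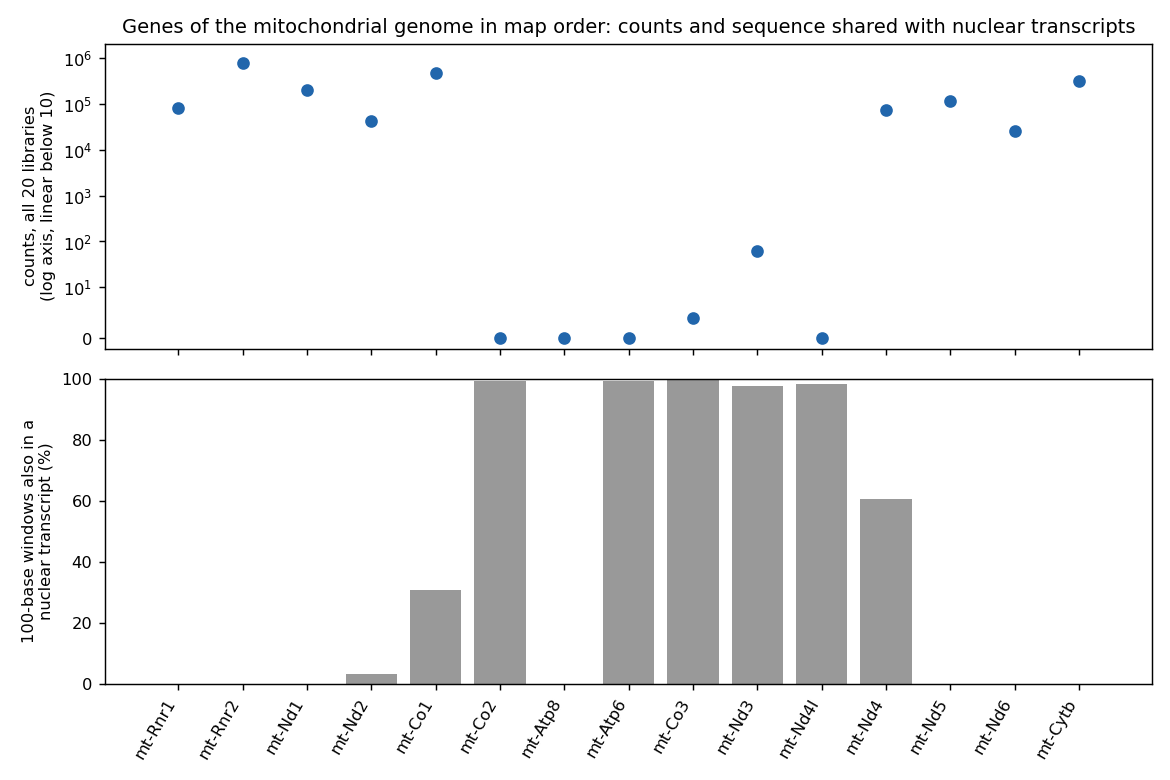
Genes of the mitochondrial genome in map order on the horizontal axis, with the total count over 20 libraries in the upper panel (log axis, linear below 10) and the percent of 100-base windows shared with an annotated nuclear transcript in the lower panel. The 6 genes from mt-Co2 to mt-Nd4l have 0 to 63 counts, and 5 of these 6 share nearly all windows.

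Messenger RNAs of 6 of the 7 mitochondrial genes were called higher in the libraries of all 3 tissues than in those from the blood of tumor mice, the exception being mt-Co1. The gene mt-Nd1, a membrane subunit of complex I, had 132, 155, 286 and 194 CPM in brain libraries, 405, 306, 559 and 223 in liver and 381, 217, 305 and 284 in tumor, against 40.9, 21.9, 38.5 and 49.0 in the blood of tumor mice. Every tissue library was above every blood library. Here and below, fold changes come from edgeR's quasi-likelihood test on the counts, in 1 model over all 20 libraries and 28762 genes, p-values are adjusted by Benjamini-Hochberg over all genes, and a gene past an adjusted p of 0.05 is called. Relative to the blood of tumor mice, mt-Nd1 had a log2 fold change of 2.35 ± 0.35 in brain (SE; adjusted p = 0.000237), 3.31 ± 0.36 in liver (adjusted p = 2.92e-06) and 2.98 ± 0.35 in tumor (adjusted p = 1.79e-06).

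The gene mt-Cytb, the mitochondrial subunit of complex III, was higher in all 3 tissues as well. It had 219, 284, 469 and 323 CPM in brain, 713, 457, 1022 and 308 in liver and 482, 312, 335 and 352 in tumor, against 88.8, 59.3, 99.6 and 92.6 in the blood of tumor mice. The groups did not overlap, and the log2 fold changes were 1.93 ± 0.31 in brain, 2.88 ± 0.32 in liver and 2.12 ± 0.31 in tumor (adjusted p = 0.000599, 4.89e-06 and 2.68e-05). Complex I subunits mt-Nd2, mt-Nd4, mt-Nd5 and mt-Nd6 were called in each tissue as well, with log2 fold changes of 1.24 to 2.14 in brain, 1.72 to 3.04 in liver and 0.97 to 1.86 in tumor. The smallest of them in each tissue was that of mt-Nd4. This gene also has the largest share of windows in nuclear transcripts among these, but a link between these facts was not tested. The gene mt-Nd6 is the only protein gene transcribed from the light strand, and it had 17.4, 28.0, 50.2 and 39.2 CPM in brain, 58.3, 37.9, 68.7 and 27.6 in liver and 34.3, 19.8, 25.01 and 23.0 in tumor, against 7.92, 5.42, 6.86 and 10.4 in the blood of tumor mice. It too was above blood in every tissue library. Since no strand is stated for the libraries, the mt-Nd6 counts may hold reads from the other strand, which was not tested.

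Complex IV subunit mt-Co1 stood apart. It had 553, 419, 789 and 563 CPM in brain, 713, 556, 1052 and 506 in liver and 635, 419.9, 514 and 488 in tumor, against 341, 311, 404 and 376 in the blood of tumor mice. No tissue library fell into the blood range, but the differences were small, at 0.70 ± 0.23 in brain (log2, adjusted p = 0.0901), 0.98 ± 0.23 in liver (adjusted p = 0.0140) and 0.52 ± 0.23 in tumor (adjusted p = 0.112). The call in liver was lost without liver replicate 3, with an adjusted p of 0.0924, and without replicate 1 or 2 of the blood of tumor mice.

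**Figure D2:**
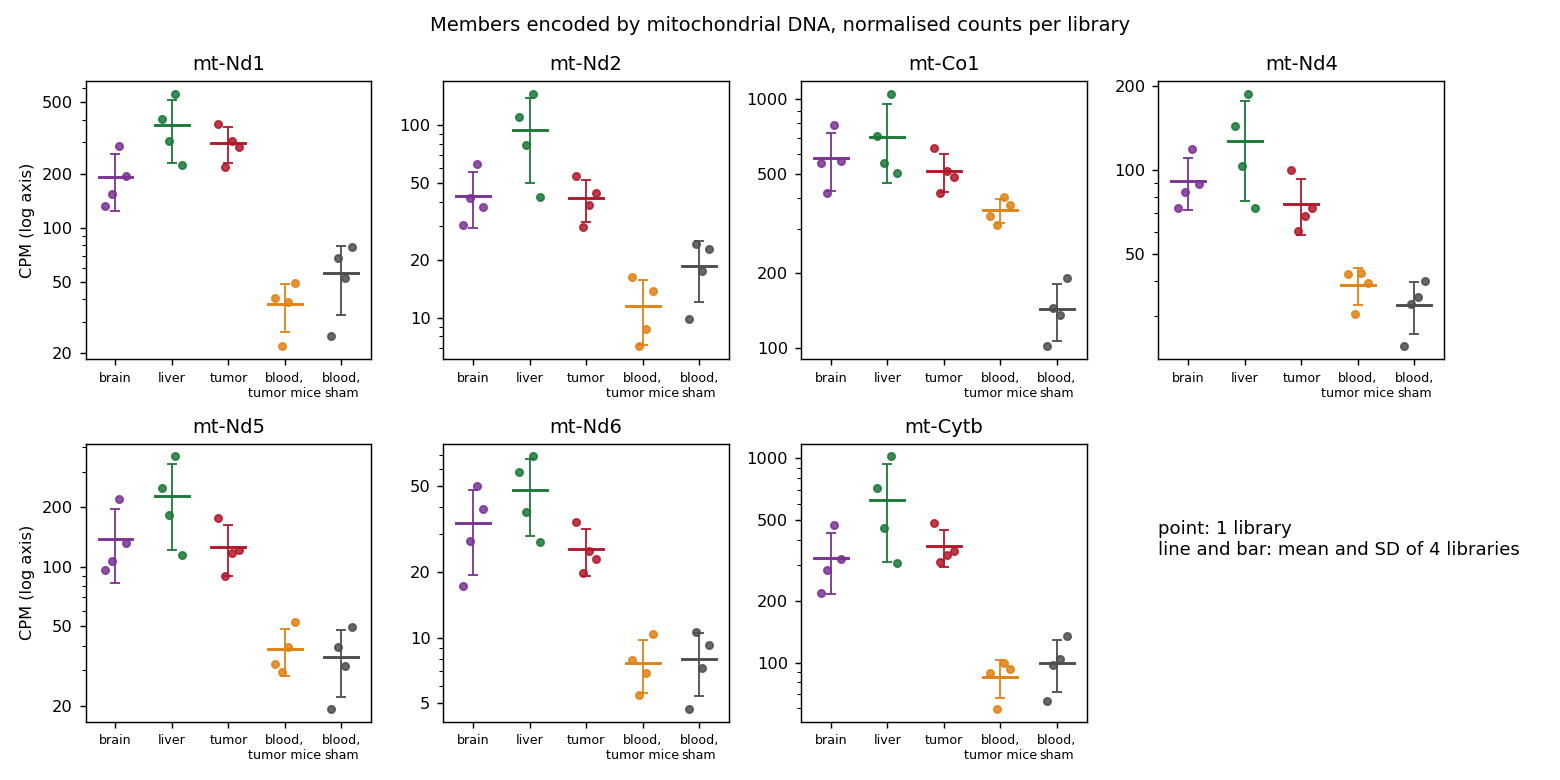
Normalised counts (CPM, log axis) of the 7 mitochondrial protein genes with reads, by group, with 1 point per library and the mean and SD of 4 libraries. In all 7 panels the brain, liver and tumor libraries lie above the libraries from the blood of tumor mice, and in the mt-Co1 panel the sham libraries lie below both.

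Liver had the highest mean of all 7 genes among the 5 groups, yet its libraries spread widely and no mitochondrial gene was called between brain and liver. For mt-Nd2 the difference was -1.13 ± 0.35 (brain over liver, log2), with an adjusted p of 0.0975, and for mt-Nd1 it was -0.96 ± 0.33 with an adjusted p of 0.144. Between brain and tumor, mt-Nd1 differed by -0.63 ± 0.33 (log2, adjusted p = 0.202) and none of the other 6 was called, with values of -0.19 to 0.40. The order liver, tumor, brain for mt-Nd1 means of 373, 297 and 192 CPM is therefore an order of overlapping groups, whereas the step down to 37.6 CPM in the blood of tumor mice is not.

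Circulating neutrophils of tumor mice and of sham mice had mt-Co1 as the only mitochondrial gene called between them. Sham libraries had 102, 145, 136 and 191 CPM of mt-Co1, all below the 4 libraries from tumor mice given above, a log2 fold change of 1.32 ± 0.24 (adjusted p = 0.00206). For mt-Nd1, sham blood had 25.04, 67.7, 52.5 and 78.8 CPM, a range that overlaps that of the tumor mice, and the log2 fold change was -0.58 ± 0.33 (tumor mice over sham, adjusted p = 0.399). The ratio of mt-Co1 to mt-Nd1 within a library puts both facts together. It was 4.18, 2.70, 2.76 and 2.91 in brain, 1.76, 1.82, 1.88 and 2.27 in liver, 1.66, 1.93, 1.69 and 1.72 in tumor and 8.33, 14.2, 10.5 and 7.66 in the blood of tumor mice, against 4.07, 2.14, 2.60 and 2.43 in sham blood. All 4 libraries from the blood of tumor mice lay above the other 16, and no test was run on this ratio. The ratio is one of CPM, not corrected for gene length, and it is compared between libraries, not genes.

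Ribosomal RNAs of the mitochondrial genome, which share promoters with the heavy-strand messenger RNAs, were called higher in none of the 3 tissues. The larger, mt-Rnr2, had 934, 486, 954 and 839 CPM in brain, 797, 1044, 1445 and 852 in liver and 673, 454, 471 and 649.7 in tumor, against 1104, 727, 942 and 1103 in the blood of tumor mice. Its log2 fold change was -0.27 ± 0.27 in brain (adjusted p = 0.614), 0.09 ± 0.27 in liver (adjusted p = 1) and -0.79 ± 0.28 in tumor (adjusted p = 0.0425), where it was called lower. The smaller, mt-Rnr1, was called in none of the 3 and only between brain and tumor, where it was 0.92 ± 0.30 higher on the log2 scale (adjusted p = 0.0394). Whether the library preparation captured ribosomal and messenger RNAs alike was not tested. Read as sums, the mitochondrial members without mt-Co1 reached 568, 699.7, 1206 and 815 CPM in brain, 1677, 1165, 2342 and 788 in liver and 1228, 729, 889 and 897 in tumor, against 228, 153, 236 and 258 in the blood of tumor mice and 147, 272, 248 and 335 in sham blood. All 9 mitochondrial members together took 0.0224% to 0.283% of a library's counts. This share holds almost no reads of the genes from mt-Co2 to mt-Nd4l, so it does not give the full mitochondrial share.

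Sequencing lanes were unevenly filled. Brain and the blood of tumor mice shared lane 1, where the mitochondrial sum without mt-Co1 was 1.77 higher on the log2 scale in 1 brain library than in 2 blood libraries. Liver shared lanes 1 and 4 with that blood group, and its sum was 2.50 and 1.76 higher there, with 1 liver and 2 blood libraries in each. Tumor and the blood of tumor mice shared no lane, so lane and group cannot be told apart in that comparison except through the other groups. With lane as a term, mt-Nd1 and mt-Cytb were still called in all 3 tissues, mt-Nd6 in brain and liver, and mt-Nd2, mt-Nd4 and mt-Nd5 in liver alone. Markers of red blood cells moved with the tissue contrast: 6 erythroid markers summed to 32.6 to 101 CPM in brain, 206 to 427 in liver and 2.58 to 60.5 in tumor, against 5236 to 66849.7 in blood from tumor mice, and all 6 were called lower in each tissue. Their sum in sham blood was 10749 to 19536. In the other direction, 8 hepatocyte markers reached 28.4 to 54.3 CPM in liver, against 0.259 to 0.639 in blood from tumor mice, and 8 brain endothelial markers 163 to 669 in brain, against 8.67 to 28.7. Microglia and macrophage markers summed to 1196 to 4382 CPM in brain and 1366 to 1997 in liver, against 897 to 929.5 in blood from tumor mice, with 5 and 3 of 8 called higher. Tumor epithelial markers had 45.8 to 360 CPM in liver, against 4.63 to 16.9, with 4 of 8 called higher, and 0 of 8 in brain. Monocyte markers reached 473 to 666 CPM in brain and 849 to 1998 in liver, against 224 to 489, with 2 and 1 of 6 called higher, and 3 of 6 fibroblast markers were called higher in each of these tissues. The part of these cells in the mitochondrial transcripts was not tested.

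**Figure D3:**
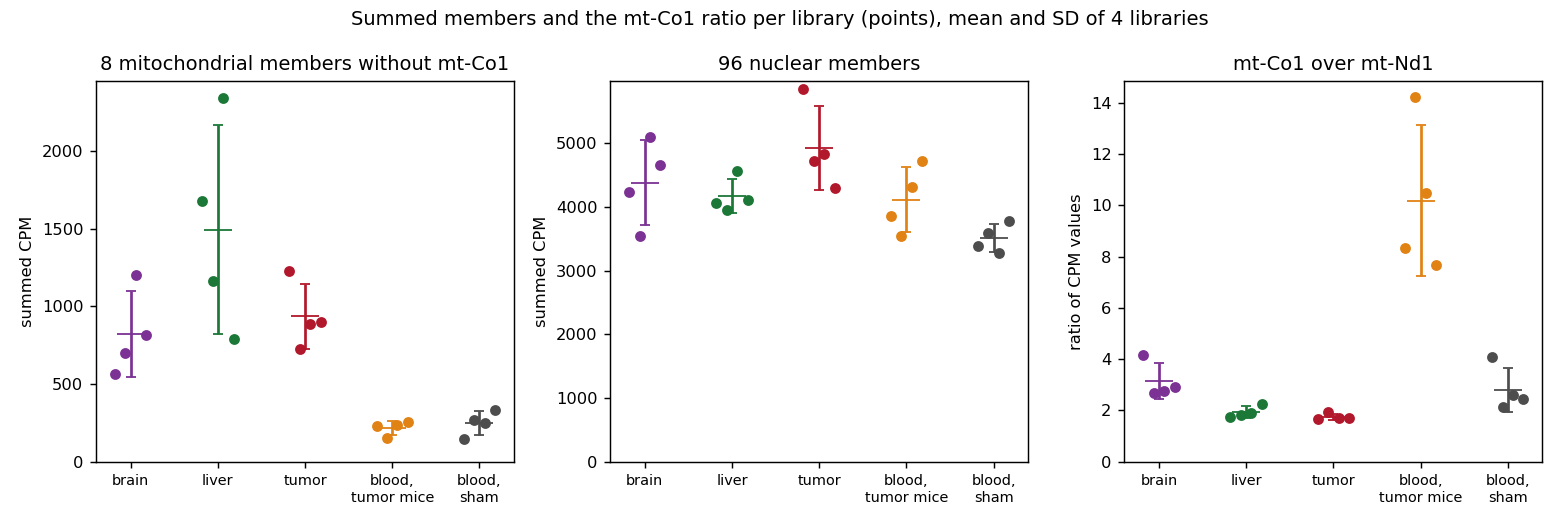
Summed CPM of the 8 mitochondrial members without mt-Co1 (left), summed CPM of the 96 nuclear members (middle) and the ratio of mt-Co1 to mt-Nd1 (right) in each library, with the mean and SD of 4 libraries per group. The left panel separates the 3 tissues (568 to 2342) from both blood groups (147 to 335), in the middle panel liver and tumor lie above sham blood while the blood of tumor mice overlaps every other group, and in the right panel the blood of tumor mice lies between 7.66 and 14.2.

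The sum over the nuclear members was 4239, 3536, 5091 and 4659 CPM in brain, 4058, 3954, 4564 and 4110.4 in liver and 5847, 4714, 4828 and 4300.3 in tumor, against 3858, 3551, 4317 and 4719 in the blood of tumor mice. Sham blood had 3392, 3585, 3276 and 3779.5, below every liver and tumor library. Brain and liver overlap the blood of tumor mice throughout, and the ratio of the mitochondrial to the nuclear sum was 0.264 to 0.392 in brain, 0.315 to 0.744 in liver and 0.244 to 0.322 in tumor, against between 0.131 and 0.148 in blood from tumor mice and 0.0734 to 0.139 in sham blood. The mitochondrial sum holds almost no reads of the genes from mt-Co2 to mt-Nd4l, so these ratios serve for comparing groups only.

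Brain against the blood of tumor mice had 10 members called higher and 0 lower, where 3.56% of all tested genes were called higher and 1.41% lower. Among genes averaging 1 CPM or more the shares were 7.29% and 3.10%, against 10.4% and 0% of the 96 members at that level. Of the 10, 6 were mitochondrial and 4 nuclear, all 4 of them complex I subunits outside the naming rule for large changes, named because so few were called. Ndufa5 had 4.70, 3.48, 5.74 and 5.06 CPM in brain against 0.436, 1.16, 1.04 and 1.81 in the blood of tumor mice (log2 fold change 2.09 ± 0.50, adjusted p = 0.0156). Ndufv3, of the NADH-binding module, had 43.9, 30.4, 61.0 and 52.6 CPM in brain against 18.8, 25.2, 22.9 and 29.6 (0.96 ± 0.25, adjusted p = 0.0264). In both genes the brain libraries lay wholly above those of blood. Ndufa11 and Ndufc2 rose by 1.38 ± 0.38 and 1.34 ± 0.36 (adjusted p = 0.0370 and 0.0322). None of these 4 nuclear calls remained with lane as a term. Without replicate 1 of the blood of tumor mice the count of 10 fell to 6, and the 6 that held without any single library were the mitochondrial ones. At an unadjusted p under 0.05, edgeR had 2 members lower, and DESeq2 called 1 lower. No share of all genes is set beside these counts. Neutrophil precursor markers moved with this contrast, since 10 of them summed to 17823 to 49238 CPM in brain against 1812 to 4369 in blood from tumor mice, with 4 called higher, and their part in it was not tested.

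Liver against the blood of tumor mice had 9 members called higher and 0 lower, where 3.98% of all tested genes were called higher and 1.2% lower. At 1 CPM or more, 8.93% of genes and 9.375% of the 96 members were called higher, so the members' share lay near the background. Beside 7 mitochondrial genes, these were Ndufa5 and Ndufaf5, an assembly factor of complex I. Ndufaf5 had 1.76, 1.54, 3.40 and 2.67 CPM in liver against 0, 0.122, 0 and 0.194 in the blood of tumor mice (adjusted p = 0.0125). Ndufa5 was 1.99 ± 0.50 higher on the log2 scale (adjusted p = 0.0196), but this call was lost on leaving out liver replicate 4 or any of replicates 1, 2 and 3 of the blood of tumor mice, with adjusted p up to 0.0660. No nuclear member of complexes II, III, IV or V was called in brain or liver. At an unadjusted p under 0.05, 5 members were lower in liver by edgeR, and DESeq2 called 4 lower. These counts too have no share of all genes beside them.

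Direct comparison of brain and liver gave 0 called members in either direction, where 1.05% of all tested genes were called higher in brain and 1.57% lower. At an unadjusted p under 0.05, edgeR had 7 members higher and 5 lower in brain, and DESeq2 called 4 and 2. Without a share of all genes at these settings, the counts cannot be set against a background. The median log2 fold change of the 105 members was 0.04, beside 0 over all tested genes. Marker lists did differ here, with 6 of 8 brain endothelial, 4 of 10 neutrophil precursor and 3 of 8 microglia and macrophage markers higher in brain. Tumor epithelial markers had 5 of 8 lower, and monocyte markers 2 higher and 3 lower of 6. Their part in the comparison was not tested.

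Tumor libraries were a different case, with 40 members called higher and 6 lower than in the blood of tumor mice. Over all tested genes, 13.3% were called higher and 10.3% lower, and of the 12275 genes averaging 1 CPM or more these shares were 24.9% and 22.8%, against 40.6% and 6.25% of the 96 members at that level, a description with no test of its own. The members' median log2 fold change was 0.55, beside 0 over all tested genes and 0.13 over those at 1 CPM or more, and 34 of the 40 were nuclear. Scaling by DESeq2's size factors moved log2 fold changes in this comparison up by a median of 0.13 over the 12275 genes at 1 CPM or more. It gave 49 higher and 3 lower, with no named member changing direction.

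The calls in tumor divided over the complexes as follows, with Ndufa4, whose product belongs to complex IV, and its relative Ndufa4l2 counted under complex I by their symbols. Of 38 nuclear subunits of complex I, 15 were called higher, Ndufa4l2 among them, and 3 lower, of 9 nuclear subunits of complex III 4 were higher, and of 16 subunits of complex V 6 were higher and 1 lower. Cytochrome c and 4 of 8 complex I assembly factors were higher. Complex IV had 1 higher and 1 lower of 17 nuclear subunits, and complex II 1 and 1 of 4. The median log2 fold change was 0.49 for nuclear complex I subunits, 0.55 for complex III, 0.45 for complex V and 0.26 for complex IV.

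**Figure D4:**
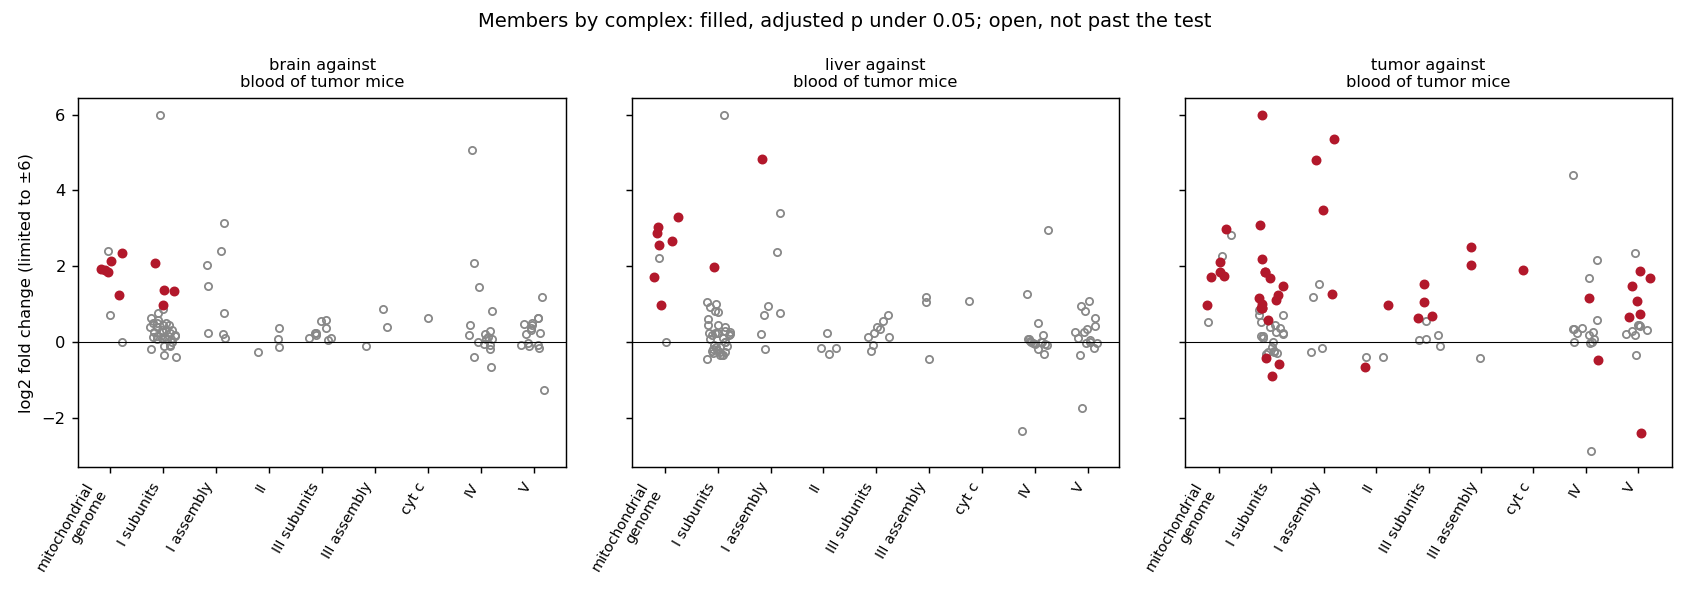
Log2 fold change of each of the 105 members against the blood of tumor mice in brain, liver and tumor (panels, left to right), grouped on the horizontal axis into the mitochondrial genome and the nuclear members by complex. Filled points passed an adjusted p of 0.05, and values beyond 6 are drawn at 6; in brain and liver most filled points sit in the mitochondrial column, whereas in tumor 34 nuclear members are filled above 0 and 6 below.

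Cycs, which encodes cytochrome c, had 35.8, 28.6, 32.6 and 31.2 CPM in tumor against 7.04, 6.50, 6.77 and 13.8 in the blood of tumor mice, a log2 fold change of 1.91 ± 0.33 (adjusted p = 0.00015). Uqcc2, an assembly factor for complex III, had 20.5, 15.9, 15.1 and 12.9 CPM in tumor against 2.05, 2.17, 3.70 and 3.48 (2.50 ± 0.44, adjusted p = 0.000171). Tumor libraries lay wholly above blood in both. Uqcc1, its partner in assembly, was 2.03 ± 0.48 higher (adjusted p = 0.00285) with overlapping libraries, since tumor replicate 5 had 9.74 CPM and replicate 4 of the blood of tumor mice 10.4.

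In complex I, Ndufa12 had 16.99, 12.7, 13.4 and 9.96 CPM in tumor against 1.94, 1.73, 4.21 and 3.69 in the blood of tumor mice (2.20 ± 0.46, adjusted p = 0.000954). Ndufc1, in the membrane arm, had 32.8, 18.3, 22.3 and 15.3 CPM against 4.01, 3.51, 7.76 and 9.39 (1.85 ± 0.38, adjusted p = 0.000966). Neither gene had overlapping groups. Assembly factors of complex I near the floor of detection rose as well, chosen for mention after their values were seen. Ndufaf5 had 3.95, 2.70, 4.09 and 2.73 CPM in tumor against 0, 0.122, 0 and 0.194, and Ndufaf2 had 5.12, 4.71, 3.69 and 3.66 against 0, 0.305, 0.0221 and 0.281 (adjusted p = 0.00148 and 0.0102). Ndufa5, the nuclear gene called in all 3 tissues, reached 13.4, 9.57, 8.62 and 6.55 CPM in tumor, against the 0.436 to 1.81 of blood given above, a log2 fold change of 3.10 ± 0.52 (adjusted p = 0.00011).

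In complex V, 3 nuclear genes encode the same mature subunit c of the rotor ring, and all 3 were called higher in tumor. Atp5g1 had 48.7, 30.3, 32.7 and 22.7 CPM in tumor against 5.76, 4.43, 12.3 and 14.3 in the blood of tumor mice (1.87 ± 0.37, adjusted p = 0.000686). Atp5g3 averaged 75.9 CPM against 35.7 (1.09 ± 0.26, adjusted p = 0.00371) and Atp5g2 4.66 against 1.45 (1.69 ± 0.59, adjusted p = 0.0428). The call on Atp5g2 is the weakest of these, with adjusted p up to 0.120 when single libraries were left out. Of the catalytic head, Atp5a1 was called higher at 348 against 221 CPM (0.65 ± 0.16, adjusted p = 0.00372).

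Falls in tumor were few. Atp5l, subunit g of complex V, had 0.923, 2.51, 2.31 and 3.92 CPM in tumor against 15.7, 11.96, 10.1 and 13.3 in the blood of tumor mice (-2.40 ± 0.57, adjusted p = 0.00333). Ndufa8, of complex I, had 64.9, 60.4, 54.5 and 59.9 CPM against 106, 84.4, 132 and 126 (-0.90 ± 0.19, adjusted p = 0.00103). Sdha, the flavoprotein of complex II and also an enzyme of the tricarboxylic acid cycle, had 205, 159, 174 and 165 CPM against 245, 287, 288 and 298 (-0.67 ± 0.14, adjusted p = 0.0012). In all 3 the tumor libraries lay wholly below blood, and each call held without any single library. Cox7a2l, a factor of respiratory supercomplexes, averaged 30.1 CPM in tumor against 41.8 (-0.47 ± 0.17, adjusted p = 0.0467), and Ndufb11 31.4 against 47.04 (-0.58 ± 0.20, adjusted p = 0.0376). The calls on Cox7a2l, Ndufb11 and Ndufs1 are marginal: without tumor replicate 2 or 3, or replicate 1 or 3 of the blood of tumor mice, the count of 6 lower members was 3.

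**Figure D5:**
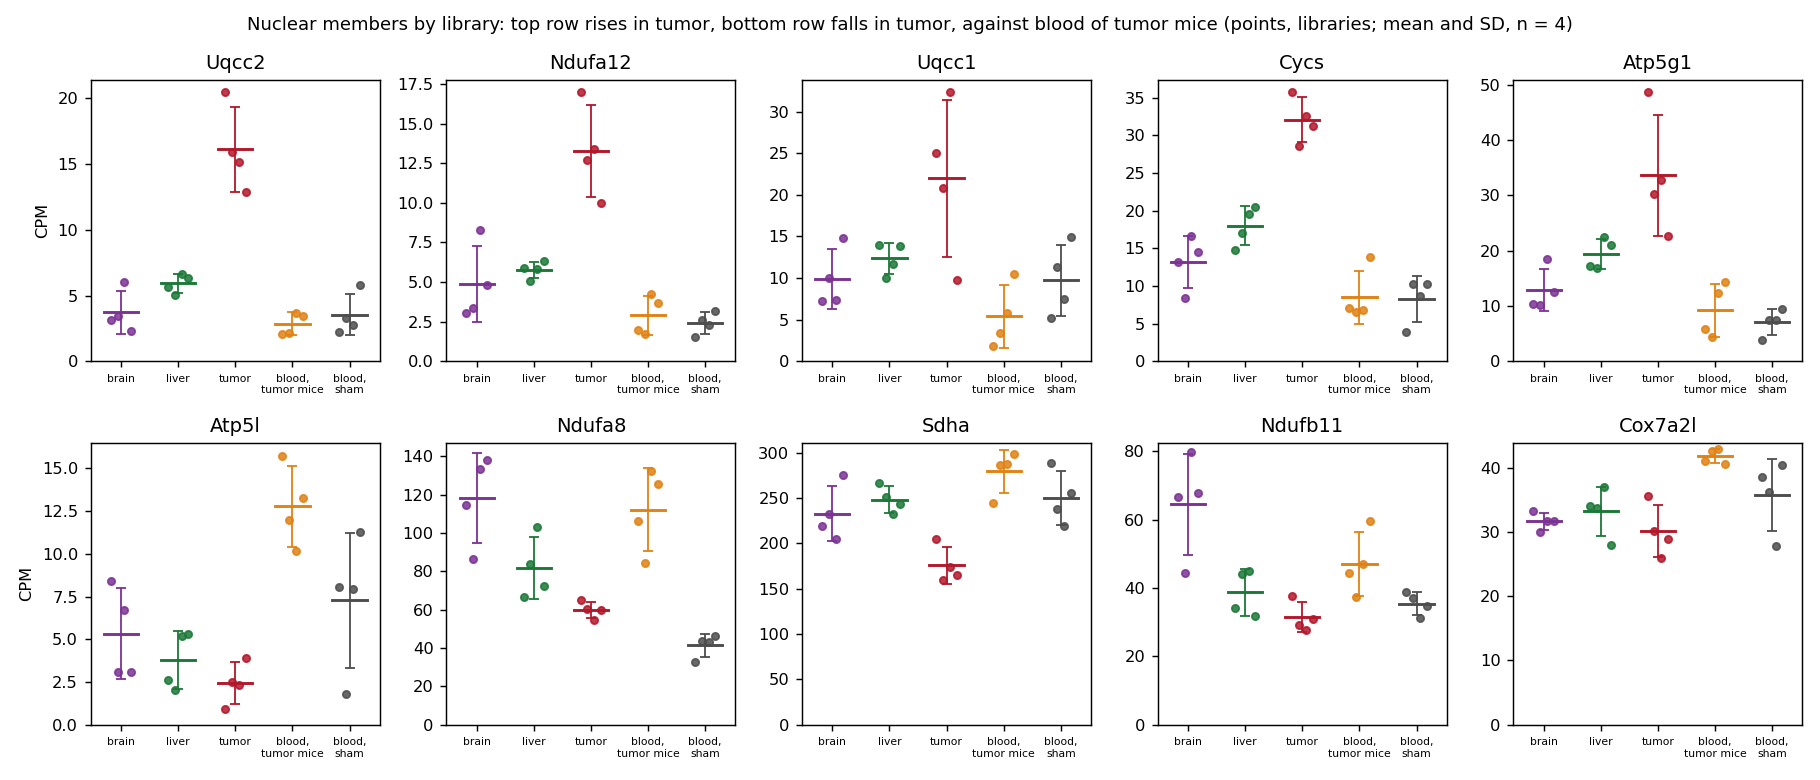
CPM of 10 nuclear members in each library by group, with the mean and SD of 4 libraries; the top row holds the 5 nuclear members with large rises in tumor and the bottom row 5 falls, both against the blood of tumor mice. Tumor values of Uqcc2 run from 12.9 to 20.5 with all other groups at or below 6.65, and Ndufa8 in sham blood (32.8 to 46.3) lies below every other group.

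The tumor calls carry the limits of that group. With lane as a term 6 members were called higher and 2 lower: mt-Nd1, mt-Cytb, Uqcc2, Uqcrb, Ndufa5 and Ndufaf5 higher, and Atp5l and Ndufa8 lower. The number of all genes called with that term is not given here. A loss of calls common to all genes therefore cannot be told apart from one of the members. When single libraries were left out, the count of higher members stayed between 33 and 42. The epithelial, macrophage and neutrophil marker levels given at the start move with this contrast, as do 6 fibroblast markers, at 16.5 to 771 CPM in tumor against 0 to 1.14 in blood from tumor mice, and their part in it was not tested.

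Brain against tumor gave 5 members called higher and 14 lower, where 8.54% of all tested genes were called higher and 6.87% lower. At 1 CPM or more these shares were 18.2% and 13.7% of genes, against 5.21% and 14.6% of the 96 members, so the share of lower members lay near the background. None of the 19 was mitochondrial. The largest falls in brain were those of Uqcc2, with 3.11, 3.44, 6.04 and 2.27 CPM in brain against the 12.9 to 20.5 of tumor (-2.12 ± 0.43, adjusted p = 0.00127), Ndufa12 (-1.44 ± 0.44, adjusted p = 0.0292), Atp5g1 (-1.38 ± 0.37, adjusted p = 0.0119), Ndufc1 (-1.33 ± 0.38, adjusted p = 0.0176) and Cycs, with 13.2, 8.40, 16.6 and 14.5 CPM in brain (-1.28 ± 0.32, adjusted p = 0.008). Higher in brain was Ndufb11, with 66.6, 44.3, 79.8 and 67.7 CPM against 37.8, 29.2, 27.8 and 30.8 in tumor (1.04 ± 0.20, adjusted p = 0.000794). Ndufa8 was also higher, at 118 ± 23.4 CPM in brain and 59.9 ± 4.25 in tumor (SD, n = 4 each; log2 fold change 0.98 ± 0.19, adjusted p = 0.000782). The remaining rises were Ndufaf7 (1.03 ± 0.28, adjusted p = 0.0131), Ndufb7 (0.78 ± 0.20, adjusted p = 0.00979) and Sdhb, the iron-sulfur subunit of complex II (0.47 ± 0.15, adjusted p = 0.0312). The Sdhb call was lost under 11 of 15 alternatives (other scalings, filters and model terms, DESeq2 and each left-out library), 7 of them a left-out library, with adjusted p up to 0.164, and the Ndufa12 call under 6, with adjusted p up to 0.124. Ndufaf7 was lost under 3, and Ndufb7 and Ndufc1 under 2 each, while Uqcc2, Atp5g1, Cycs, Ndufb11 and Ndufa8 held under all 15. Without tumor replicate 1 the 14 lower members became 5, without brain replicate 3 they became 8 and without tumor replicate 3 they became 9. Without brain replicate 2 or 4 or tumor replicate 2 the 5 higher members became 3. All 10 neutrophil markers were higher and all 8 epithelial markers lower in brain than in tumor. Of 10 neutrophil precursor markers 4 were higher and 1 lower, and of 6 monocyte markers 1 was higher and 3 lower. Brain endothelial markers had 4 of 8 higher, neuron and glia markers 4 of 8 higher, and fibroblast markers 3 of 6 lower. The part of these cells in the calls was not tested.

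Between the circulating neutrophils of tumor mice and of sham mice, 3 members were called higher and 1 lower, where 1.63% of all tested genes were called higher and 1.69% lower. Genes averaging 1 CPM or more had 3.71% higher and 3.78% lower, against 3.125% and 1.04% of the 96 members. Ndufa8 had 106, 84.4, 132 and 126 CPM in tumor mice against 32.8, 43.6, 43.2 and 46.3 in sham mice, a log2 fold change of 1.43 ± 0.19 (adjusted p = 9.8e-05). The groups were far from overlapping. Together with mt-Co1 this was the call that held without any single library. Sdhb had 149, 116, 144 and 152 CPM in tumor mice against 84.5, 101, 89.4 and 103 (0.57 ± 0.15, adjusted p = 0.0325), and its adjusted p rose to as much as 0.0979 when a library was left out. Ndufaf5, called lower, had 0, 0.122, 0 and 0.194 CPM in tumor mice against 0.655, 1.90, 1.74 and 1.44 in sham mice (adjusted p = 0.0391). This call was lost on leaving out any of replicates 1, 2 and 3 of the tumor mice or 2, 3 and 4 of the sham mice, so the count of lower members was then 0. Of the marker lists, 4 of 10 neutrophil markers were higher and 4 of 6 B cell markers lower in the blood of tumor mice, with B cell sums of 35.7 to 61.1 CPM against 522 to 1006 in sham blood, and their part in these calls was not tested.

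Tissue-limited isoforms stayed near the floor, while their common partners were abundant. Complex IV subunit Cox4i1 averaged 149, 136, 159.7 and 141 CPM in brain, liver, tumor and the blood of tumor mice and 99.4 in sham blood. Its lung and hypoxia isoform Cox4i2 had 453 counts in all 20 libraries together and at most 1.45 CPM. The heart and muscle isoforms Cox6a2, Cox7a1 and Cox8b had 211, 244 and 15 counts, and the testis isoforms Cox6b2 and Cox8c 753 and 2. Cox7a1 came nearest to a call, in tumor, with 1.01, 0.277, 0.793 and 0.388 CPM against 0, 0.0203, 0 and 0.0863 in the blood of tumor mice (adjusted p = 0.0536). Ndufa4, counted above under complex I by its symbol although its product is a subunit of complex IV, had 27.0, 25.1, 23.8 and 20.5 CPM in tumor against 25.8, 23.7, 33.3 and 38.0 in the blood of tumor mice. Its hypoxia-induced relative Ndufa4l2 had no count in any of the 8 blood libraries and 0.560, 0.967, 1.45 and 0 CPM in brain, 0, 0.424, 0.752 and 0 in liver and 6.61, 0, 2.45 and 0.793 in tumor. Only the tumor difference was called (adjusted p = 0.016). These counts were also set against a floor of 3 counts over the blood group, relative to library totals without TMM scaling. On that scale the 670 tumor counts are at least 215-fold higher, the 143 brain counts at least 44.9-fold and the 50 liver counts at least 15.9-fold. With TMM scaling the tumor bound is lower, since the factors were 1.17 to 1.40 in tumor and 0.922 to 0.957 in the blood of tumor mice. Tumor replicate 1 held 444 of the 670 counts, and tumor replicate 2, brain replicate 5 and a pair of liver libraries had none.

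Across groups, tumor held the highest mean of 59 of the 89 nuclear members averaging 1 CPM or more, brain of 19, the blood of tumor mice of 9 and liver of 2. Sham blood held the lowest mean of 50 of the 89. For the 7 mitochondrial genes the highest mean was always in liver and the lowest in the blood of tumor mice (4 genes) or of sham mice (3 genes). This ranking was not made over all genes, so its counts do not set the members apart from other genes. Per kilobase of exon, mt-Co1 was the most abundant member in brain, tumor and the blood of tumor mice (376, 333 and 232 CPM per kb), mt-Cytb in liver (546) and the nuclear gene Cox8a in sham blood (133), beside medians over the members of 17.9, 21.6, 13.4, 17.7 and 12.4 in the same order. The full exon length was used, although 30.8% of the windows of mt-Co1 also occur in nuclear transcripts. Its values may be too low if such reads were not counted, which was not tested. Mitochondrial genes almost without reads cannot be ranked.

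Promoters were searched for letters bound by factors known for respiratory genes, because many nuclear members rose together in tumor. RefSeq windows (GRCm38.p6) from 250 bases before to 50 after the start were at hand for 79 of the 96 nuclear members. The palindrome of nuclear respiratory factor 1, the same on both strands and spelled by the capitals in the stretches shown, occurred in 7 of the 79 (8.86%), against 1.07% of 27025 genes with such windows. The ETS letters CCGGAAGT, on either strand, occurred in 5 (6.33%), against 4.31%, and the hypoxia response core ACGTG in 22 (27.8%), against 21.8%. Among the 27 members called higher in tumor that had a window, 4 held the first motif, 1 the second and 8 the third, against 3, 4 and 14 of the other 52. Stretches around the first motif are shown, in capitals, for the 3 members called higher in tumor in which it lies before the start, at chr15:102671055-102671114 (minus strand) for Atp5g2, chr17:56717677-56717736 (plus strand) for Ndufa11 and chr4:24897945-24898004 (plus strand) for Ndufaf4.
Atp5g2: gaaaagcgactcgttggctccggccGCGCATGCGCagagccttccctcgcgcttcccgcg
Ndufa11: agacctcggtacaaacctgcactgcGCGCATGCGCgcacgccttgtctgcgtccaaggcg
Ndufaf4: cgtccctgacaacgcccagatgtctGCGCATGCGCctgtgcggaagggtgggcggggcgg
The motif begins 42, 60 and 113 bases before the start in these. These 3 members had 4.66, 20.8 and 7.50 CPM on average in tumor against 1.45, 7.52 and 0.664 in the blood of tumor mice. The fourth, Ndufaf5, holds it after the start. A match of letters is a description of the window and not of binding.

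Genes that build or feed the respiratory chain were counted from lists outside the set. Of 81 mitochondrial ribosomal proteins, which translate the mitochondrial messenger RNAs, 38 were called higher and 3 lower in tumor against the blood of tumor mice, but 2 and 0 in brain and 0 and 2 in liver. For these and the next lists, the shares of all tested genes called higher and lower were 13.3% and 10.3% in tumor (24.9% and 22.8% at 1 CPM or more), 3.56% and 1.41% in brain, and 3.98% and 1.2% in liver. The 3 lower ones include Mrpl33, which averaged 37.3 ± 12.9 CPM in tumor and 342 ± 68.8 in the blood of tumor mice (SD, n = 4 each; log2 fold change -3.20 ± 0.24, adjusted p = 9.85e-09). Of 24 regulators of mitochondrial transcription, replication and biogenesis, 1 was higher and 4 lower in tumor, 1 and 0 in brain and 0 and 2 in liver. Nrf1, which encodes nuclear respiratory factor 1, averaged 49.96 ± 6.92 CPM in tumor and 82.1 ± 11.4 in the blood of tumor mice (-0.72 ± 0.19, adjusted p = 0.00704), and Yy1 29.4 ± 4.03 and 57.4 ± 7.26 (-0.97 ± 0.20, adjusted p = 0.000788). Of 21 genes of the tricarboxylic acid cycle and pyruvate import and oxidation, 9 were higher and 4 lower in tumor, 1 and 0 in brain and 3 and 0 in liver. Idh2, the mitochondrial NADP-dependent isocitrate dehydrogenase, averaged 14.4 ± 6.93 CPM in brain and 20.99 ± 4.03 in liver, against 3.71 ± 1.54 in the blood of tumor mice (1.95 ± 0.44 and 2.50 ± 0.45, adjusted p = 0.0109 and 0.00148). Of 38 further assembly factors with a count, 10 were higher and 4 lower in tumor, 0 and 0 in brain and 2 and 0 in liver, among them the complex I factor Tmem126a, at 9.95 ± 1.78 CPM in liver and 3.99 ± 1.26 in the blood of tumor mice (1.32 ± 0.36, adjusted p = 0.0364).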

How the data were processed

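RNA from sorted neutrophils (250 pg per library) was amplified with SMART-Seq v4 (no strand is stated) and sequenced with single reads of 100 cycles, 4 libraries per lane. The counts deposited by the authors are whole reads per gene without normalization, and the submitters' processing notes name mm10 and DESeq2. The aligner, the counting tool and the treatment of reads with several matches were not given in the sources used here. Of 51918 entries, 6 that repeat an Ensembl gene were dropped. A second table of the authors, with transformed values, was not used.

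The members were those matching the symbol rule given in the report. They, the gene lists and the marker lists were chosen with earlier results of these data known. Named members are the 13 mitochondrial protein genes, tissue-limited isoforms, and per comparison, up to 5 called rises and 5 called falls of the greatest size among members averaging 10 CPM or more in their higher group; others are named where counts were small or, as stated, after their values were seen.

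Genes with at least 1 count (28762) were scaled by TMM and tested two-sided in edgeR 4.0.16 (R 4.3.3) by quasi-likelihood in 1 model of 5 groups over 20 libraries (residual degrees of freedom 15, prior 6.48), with p-values adjusted over all genes within each of 6 comparisons. The method was tested on simulated data. CPM values are scaled by TMM and counting intervals cover counting error only. Alternatives were DESeq2 1.42.0, its size factors, normalization on nuclear genes, filterByExpr, only the compared groups, the replicate number as a block, lane as a term, a log2 fold threshold of 2 and leaving out each library. Replicates were not duplicate libraries. Gene positions and exon lengths are from GENCODE M21, in which all 105 members were found, and promoter sequences from RefSeq. The other alleles of the injected cell line are not reported here.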

Additional observations from a re-analysis of the deposited data

Results flagged for a closer look

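In 152 groups of 4 libraries (named members averaging 1 CPM or more in the group, and the summed mitochondrial and nuclear members), 1 library lay far from the others, by the gap to its nearest neighbour over the range of the group, in 5. Chance gives about 1 in 20 such groups, or 7.6 of 152. Cox6b1 had 102 CPM in liver replicate 3, with 74.3 to 76.1 in the other liver libraries, and Cox7b had 30.3 CPM in the same library, where the lowest of the others had 19.97. Ndufc1 had 9.07 CPM in liver replicate 2, with 11.2 to 11.4 in the others. Cox7a2 had 41.9 CPM in tumor replicate 3, with 56.0 to 58.7 in the others. Cycs had 13.8 CPM in replicate 4 of the blood of tumor mice, with 6.50 to 7.04 in the others. Among these, Cycs bears on a call, the rise in tumor, which held without that library.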

How the results depend on the processing

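Members called higher and lower are given as pairs in the order brain, liver and tumor against the blood of tumor mice, the blood of tumor mice against sham blood, brain against tumor and brain against liver. The pairs were 10 and 0, 9 and 0, 40 and 6, 3 and 1, 5 and 14, and 0 and 0. DESeq2 gave 17 and 1, 20 and 4, 58 and 7, 12 and 2, 5 and 34, and 4 and 2, over 2212 genes higher in brain against the blood of tumor mice where edgeR had 1023. Lane as a term gave 3 and 0, 7 and 0, 6 and 2, 2 and 0, 3 and 6, and 0 and 2. A log2 fold change of at least 2 gave 3 higher in brain, 10 higher and 1 lower in tumor, 0 higher between blood groups and 0 higher and 1 lower in brain against tumor. Fitting only the compared groups gave 1 lower in liver, 3 lower in tumor, 0 lower between blood groups, and 3 higher and 8 lower in brain against tumor. DESeq2's size factors gave 3 lower in tumor and 1 higher in brain against liver, and filterByExpr 1 lower in liver and 1 higher in brain against liver. Normalization on nuclear genes changed no count. Leaving out each library gave 6 to 10 and 0 to 0 in brain, 7 to 12 and 0 to 0 in liver, 33 to 42 and 3 to 6 in tumor, 2 to 3 and 0 to 1 between blood groups, 3 to 5 and 5 to 16 in brain against tumor, and 0 to 2 and 0 to 2 in brain against liver. The cause of these differences was not tested, except that fewer libraries or genes enter some fits by construction. Apart from the DESeq2 value for brain, counts over all genes are not given for the alternatives. Changes in member counts are thus not set against changes over all genes. Of 690 alternative values of 46 calls on named members, 616 stayed past the test, 74 did not and 0 turned sign; 23 of the 74 came with lane as a term.

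The labels do not say whether equal replicate numbers mark a shared mouse. The correlation of deviations from the group means was -0.11 to 0.16 over 19 same-numbered pairs within tumor mice, 15 of them above 0 and 5 above 0.1, and -0.17 to 0.10 over 14 pairs with a sham library, so the replicate block was kept as an alternative. With the replicate block the counts were 8 higher in brain, 11 in liver, 45 higher and 5 lower in tumor, and 5 higher and 15 lower in brain against tumor. Depth limits members with few counts: mt-Nd3 had 18 counts in brain, 15 in liver and 24 in tumor, against 3 in the blood of tumor mice, and was called in none of these comparisons.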
